A study of Mus musculus with 3 samples.

Results

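Keratins are the intermediate filament proteins of epithelial cells, and 10 keratin genes were examined in cells of the developing mouse palate: Krt5, Krt14, Krt15, Krt6a, Krt13, Krt4 and Krt17, which belong to stratified epithelium, and Krt8, Krt18 and Krt19, which belong to simple epithelium. The genes were chosen by name and counted in all cells, starting from the set of cells with a UMI of Epcam (an epithelial cell adhesion molecule) or of any of the 10 keratins. Their levels and joint detection are given for an epithelial-like class defined without keratins, since the set is itself selected by keratin UMIs. A UMI, or unique molecular identifier, marks 1 captured RNA molecule. The set held 1318 of 7917 cells, of which E13.5 gave 387, E14.5 gave 332 and E15.5 gave 599 (E stands for embryonic day). The 10 genes are part of 32285 genes in the count tables, which list 43 other Krt genes, 30 of them with at least 1 UMI.

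The tissue was palatal shelves of wild-type C57BL/6J embryos, the paired outgrowths that form the roof of the mouth. The labels name no treatment. There was 1 library per stage, each from pooled tissue of 3 embryos, and methanol fixation of the dissociated cells came before droplet capture. With 1 library per stage no difference between stages could be tested, so every interval given here covers counting error at the 95% level and nothing else.

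Unless said otherwise, 3 values in a row are in the order of the stages. The libraries held 4236, 2079 and 3113 barcodes, with median totals of 1735, 1614 and 1699 UMIs. After filtering, 3583, 1750 and 2584 cells were left. The labelled tissue is palate, but 5 clusters with neuronal or neural progenitor markers held between 245 and 621 cells each at E13.5 and at most 14 cells each at a later stage, so the E13.5 library stands apart in its cell mix. Stages were therefore compared within an epithelial-like class. The libraries shared 3 cell barcodes between E13.5 and E14.5 and 1 in each of the other pairs.

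A keratin filament is built from pairs of a type I and a type II keratin. Krt5 (type II) pairs with Krt14 or Krt15 (type I) in the basal layer of stratified epithelium, Krt4 (type II) pairs with Krt13 (type I) in the suprabasal layers of non-cornified mucosa such as that of the mouth, and Krt8 (type II) pairs with Krt18 or Krt19 (type I) in simple epithelium. Krt6a (type II) and Krt17 (type I) are known from appendages and from growing or wounded stratified epithelium. The palate of the embryo is covered by a thin epithelium with a flat outer periderm, and its nasal side develops into airway epithelium with secretory and ciliated cells.

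The type II genes lie together on chromosome 15 with Krt18, and the other type I genes on chromosome 11 (GENCODE annotation of GRCm38). Krt5 spans chr15:101707070-101712898, Krt6a chr15:101689910-101694307, Krt4 chr15:101918535-101924735 and Krt8 chr15:101996698-102004482, all on the minus strand. Krt18 spans chr15:102028180-102032027 on the plus strand and starts 23.697 kb from Krt8, its partner, so that the main pair of simple epithelium is also a pair of neighbours. Krt13 (chr11:100117327-100121566), Krt15 (chr11:100131758-100135928), Krt19 (chr11:100140810-100148665), Krt14 (chr11:100203162-100207548) and Krt17 (chr11:100256217-100261029) are all on the minus strand. Krt15 and Krt19, of which one is a stratified and one a simple keratin, are 4.881 kb apart.

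RefSeq start sites with their flanking sequence were at hand for 5 of the 10 genes, and 4 are shown because these genes had different courses: Krt5 and Krt13 were called higher at the last than at the first stage by wide margins, Krt8 by a narrow one, and Krt18 was not called. Each sequence runs 5′ to 3′ in the direction of transcription, from 150 bases before the RefSeq start to 20 bases from the start on (GRCm38.p6). Capitals mark the TATA-like letters ATAAA and the E-box CACCTG on either strand. The AP-1 letters TGANTCA were also searched.
Krt5: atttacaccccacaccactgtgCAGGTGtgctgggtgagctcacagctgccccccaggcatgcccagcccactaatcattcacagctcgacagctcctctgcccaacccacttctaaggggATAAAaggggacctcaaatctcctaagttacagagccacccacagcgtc
Krt13: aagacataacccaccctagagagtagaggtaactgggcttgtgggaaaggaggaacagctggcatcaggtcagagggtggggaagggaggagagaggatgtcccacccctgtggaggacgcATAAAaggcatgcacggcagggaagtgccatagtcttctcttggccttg
Krt8: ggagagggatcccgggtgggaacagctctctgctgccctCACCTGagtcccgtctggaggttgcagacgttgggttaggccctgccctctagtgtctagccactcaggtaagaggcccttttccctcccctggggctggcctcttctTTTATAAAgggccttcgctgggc
Krt18: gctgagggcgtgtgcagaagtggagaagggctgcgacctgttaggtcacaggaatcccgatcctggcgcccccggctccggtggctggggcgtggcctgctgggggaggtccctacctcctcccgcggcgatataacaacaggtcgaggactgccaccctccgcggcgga
The windows are chr15:101712886-101713055 (Krt5, minus strand), chr11:100121547-100121716 (Krt13, minus strand), chr15:102004323-102004492 (Krt8, minus strand) and chr15:102028066-102028235 (Krt18, plus strand). Krt5 and Krt13 both held ATAAA with its first base at position -29 from the start. In Krt8 the overlapping letters TTTAT and ATAAA lie at -3 and 1, but this RefSeq start is 140 bases from the nearest GENCODE start, while those of Krt5, Krt13 and Krt18 are 7, 0 and 36 bases away. An E-box match lay at -128 in Krt5 and at -111 in Krt8. Of 32851 RefSeq windows of the same length, 25.7% held ATAAA, 11.9% the E-box and 4.74% the AP-1 letters, which none of the 4 printed windows held. A second RefSeq start of Krt13, whose window is not printed, had the AP-1 letters at -34. It had TATA-like letters at -112, -103 and -76. These motifs were chosen after the sequences were seen. The RNA counts do not measure promoter activity, and a match of letters is not a binding site.

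The epithelial-like class was built without keratins: all Krt genes were left out of the clustering, and clusters were named from 15 other epithelial markers such as Epcam, Cdh1 and Cldn7. It held 147, 168 and 329 cells at the 3 stages, with 454740, 560937 and 1213804 UMIs. These cells fell into 3 clusters whose mix differed between stages. Cluster 1 (98, 98 and 127 cells), over all stages led by the airway secretory genes Bpifa1, Aox2 and Scgb1c1, held most of the class at E13.5. Cluster 17 (49, 59 and 186 cells) held most at E15.5. It was led by Krtdap and, although no Krt gene was used to cluster, by Krt5, Krt15, Krt13 and Krt14. Cluster 7 (0, 11 and 16 cells), led by the cilium genes Dynlrb2 and Foxj1, appeared at E14.5 and E15.5. The class therefore holds nasal as well as oral epithelium. It also holds 4 sub-clusters led by neural or inner-ear genes such as Neurod1, Fezf2, Nrxn3 and Oc90, with 64 of its 147 cells at E13.5, 57 of 168 at E14.5 and 36 of 329 at E15.5, so results are also given without them, a choice made after seeing the data.

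The set defined by an Epcam or keratin UMI was wider than this class. Of the set, 33.1%, 44.6% and 52.3% lay in the epithelial-like class, while 87.1%, 88.1% and 95.1% of the class lay in the set. The set was 10.8%, 19.0% and 23.2% of each library. Its cells were deeper than the rest, with median totals of 3436, 2713 and 2665 UMIs against 1856.5, 1746 and 1840. Within the set, 78, 91 and 268 cells had a keratin UMI and no Epcam UMI, and 156, 128 and 115 had Epcam alone, so the keratin-only cells became the larger of these groups at E15.5. Krt5 was at 8.12, 93.5 and 283 CPM (counts scaled by the summed UMIs) in the set, lower than in the class.

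Levels are given in CPM, the usual scaling of a gene's UMIs by the summed UMIs of the same cells. UMIs count molecules, so no scaling by transcript length was applied. A gene is called higher or lower when the log2 ratio reached 1 in size after adding 1 CPM to each stage's level, among genes of at least 10 CPM at the higher stage.

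In the epithelial-like class, all 3 basal keratins were called higher at E15.5 than at the first stage. Krt5, which marks the basal layer, had 26.4 CPM (12 UMIs, 13.6 to 46.1), 198 (163 to 238) and 499 (460 to 541). Krt15, its type I partner in mucosal basal cells, had 39.6 CPM (23.5 to 62.6), 314 (269 to 364) and 536 (495 to 578). Krt14, the classical partner of Krt5, had 50.6 CPM (32.1 to 75.9), 134 (105 to 168) and 239 (212 to 268). In each of these genes the intervals of the 3 stages did not overlap. From E13.5 to E15.5 the fold was 18.9 (10.8 to 36.8) for Krt5 and 4.72 (3.09 to 7.57) for Krt14. For Krt15 the log2 ratio was 3.72, with a fold between 8.49 and 23.0. Krt14 thus had the highest of the 3 levels at E13.5 and the lowest at the later stages, although at E13.5 the intervals overlap. The share of cells with a UMI went from 4.76% to 23.2% and 42.2% for Krt5, from 6.12% to 27.4% and 40.7% for Krt15, and from 11.6% to 20.2% and 32.5% for Krt14.

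Krt6a and Krt17 had different courses in the epithelial-like class. Krt6a had 0 UMIs at E13.5, which allows up to 6.60 CPM, then 46.4 CPM (30.3 to 67.9) and 147 CPM (127 to 171), which was at least 22.4-fold higher (against that limit of 3 counts, leaving out the error of the higher count, as for each such bound). Krt17 had 35.2 CPM (20.1 to 57.1), 116 (89.4 to 148) and 125 (106 to 147), so its difference lay between E13.5 and E14.5 and its last step was 1.08-fold. At E13.5, however, 10 of the 16 Krt17 UMIs came from 1 cell, and without that cell the level was 13.4 CPM. Without the cell with the most Krt6a UMIs the E15.5 level of Krt6a was 109 CPM. Krt6a was detected in 0%, 5.95% and 11.9% of the cells and Krt17 in 4.76%, 14.9% and 20.4%.

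The suprabasal mucosal pair Krt13 and Krt4 was absent from the counts at E13.5, with 0 UMIs of each in 147 cells. At the later stages Krt13 had 66.0 (46.4 to 90.9) and then 337 CPM (305 to 371), at least 51.1-fold above the first stage. Krt4 had 62.4 (43.5 to 86.8) and 98.9 CPM (82.0 to 118), which was at least 15-fold higher. Single cells carried much of this. At E14.5, 34 of the 37 Krt13 UMIs (91.9%) and 18 of the 35 Krt4 UMIs were in 1 cell of 6013 UMIs, and without it Krt13 was at 3 UMIs or 5.41 CPM. At E15.5, 93 of the 120 Krt4 UMIs (77.5%) were in 1 cell of 14412 UMIs that also held 109 Krt13, 48 Krt6a, 34 Krt15 and 27 Krt5 UMIs. The 7 stratified keratins made up 2.24% of all UMIs of that cell. Without the cell richest in Krt4 at each stage, Krt4 was at 30.6 CPM at E14.5 and 22.5 CPM at E15.5, and without the cell richest in Krt13 the E15.5 level of Krt13 was 250 CPM. The number of cells behind the 14412-UMI barcode was not tested. At E15.5, 13.7% of the cells had a Krt13 UMI and 4.86% a Krt4 UMI, but the 5 cells richest in each gene held 54.3% of the Krt13 and 87.5% of the Krt4 UMIs.

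Of the simple keratins in the epithelial-like class, Krt8 and Krt19 were called higher at E15.5 and Krt18 was not. Krt18 was the highest of the 10 genes at E13.5 and had 398 CPM (342 to 460), 285 (243 to 333) and 421 (385 to 459). Its E15.5 level was 1.06-fold that at E13.5 (0.89 to 1.26) and was not called. In cells chosen by an Epcam UMI it was 2.15-fold (1.86 to 2.50) and called higher, but of those cells 201 of 309 at E13.5 and 136 of 331 at E15.5 lay outside the class. Krt8, its type II partner, had 66.0 CPM (44.5 to 94.2), 114 (87.9 to 146) and 147 (126 to 170), a 2.22-fold difference from E13.5 to E15.5 (1.50 to 3.39). Krt19, a type I keratin found in simple epithelium and in some basal cells, had 3 UMIs at E13.5 (6.60 CPM, 1.36 to 19.3), then 74.9 (54.0 to 101) and 52.7 CPM (40.6 to 67.3). Its fold from E13.5 to E15.5 was 7.99 with a wide interval of 2.61 to 39.8, and its highest level was at E14.5. The shares of cells with a UMI were 41.5%, 31.5% and 37.7% for Krt18, 16.3%, 22% and 26.4% for Krt8 and 2.04%, 14.3% and 9.73% for Krt19.

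**Figure D1:**
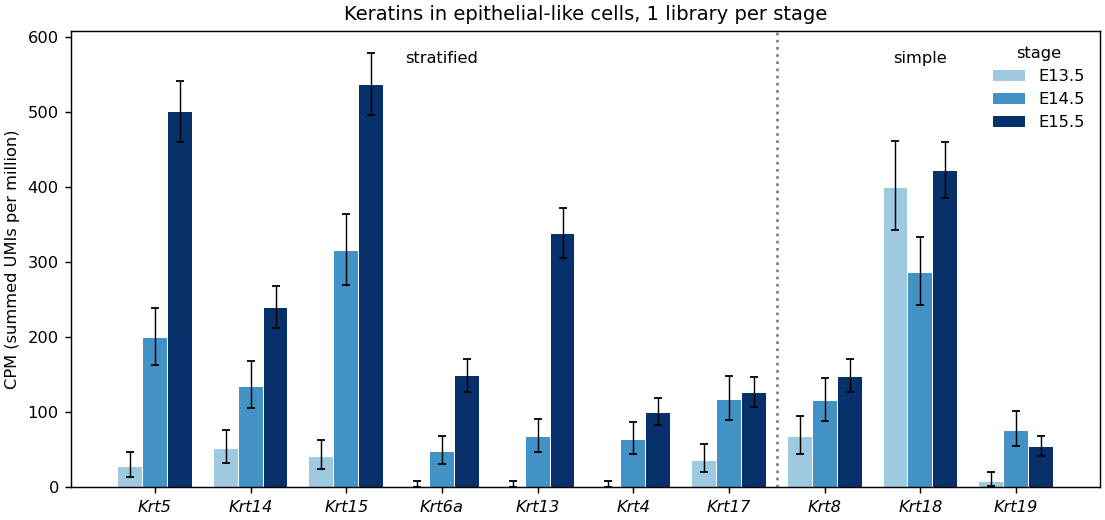
CPM of each of the 10 keratins in the epithelial-like class at each embryonic stage, with exact Poisson 95% intervals of counting error as bars. The 7 stratified keratins are at most at 50.6 CPM at E13.5 and at least at 98.9 CPM at E15.5, while Krt18 is at 398, 285 and 421 CPM.

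Summed, the 7 stratified keratins were at 152, 936 and 1982 CPM and the 3 simple keratins at 471, 474 and 620 CPM. The fold from E13.5 to E15.5 was 13.1 (10.3 to 16.8) for the stratified and 1.32 (1.13 to 1.54) for the simple keratins. Stratified keratins were 24.4% of the UMIs of the 10 genes in the epithelial-like class, then 66.4% and 76.2%. The mix of the class moved with these sums. Without the 4 sub-clusters led by neural or inner-ear genes the stratified sum was 298, 1406 and 2167 CPM and the simple sum 517, 605 and 658 CPM, with log2 ratios of 2.86 and 0.35 from first to last stage. With the shares of the 4 sub-clusters that had at least 10 cells at each stage held fixed (sub-clusters 1, 3, 4 and 9, with 59.9%, 51.2% and 39.2% of the cells, so without the keratin-rich sub-clusters 0 and 8), the stratified sum had a log2 ratio of 2.45 in place of 3.70 from first to last stage, and the simple sum one of -0.03 in place of 0.40. In cells with an Epcam UMI, whose mix differed as stated for Krt18, the folds were 22.9 (18.5 to 28.8) for the stratified sum and 2.54 (2.23 to 2.89) for the simple sum, which was then called higher. Epcam itself was at 937, 831 and 678 CPM.

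Of the 10 keratins, 9 were called higher from E13.5 to E15.5, where 18% of all 10644 genes tested were called higher and 6.29% lower. The median log2 ratio of the 10 was 3.27, against 0.07 over all genes. The call of Krt8 ended with at least 1000 genes per cell (log2 ratio 0.91) and with the sub-cluster mix held fixed (0.62), and that of Krt17 ended with the mix fixed (0.72). Without the neural and inner-ear sub-clusters the 9 calls held, with log2 ratios between 1.11 (Krt17) and 4.80 (Krt13), and Krt18 had 0.0014. From E13.5 to E14.5, 8 of 10 were called higher (16.7% of all genes), with a median of 2.91, or 2.84 with the genes at 0 set to their bound. From E14.5 to E15.5, 3 of 10 were called higher (7.17% of all genes), namely Krt5 at 2.52-fold, Krt6a at 3.18-fold and Krt13 at 5.11-fold. Krt13 at E14.5 rests on the single cell described above. None of the 10 was called lower in any of these 3 comparisons, where 6.29%, 6.5% and 5.11% of all genes were.

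At E15.5 the order of levels ran from Krt15 (536 CPM) over Krt5, Krt18, Krt13, Krt14, Krt6a, Krt8, Krt17 and Krt4 to Krt19 (52.7 CPM). The counting intervals of Krt15 and Krt5 overlapped, and so did those of Krt6a, Krt8 and Krt17 and those of Krt17 and Krt4, so these neighbours were not separated. Without the cell richest in each gene, Krt4 was at 22.5 CPM, below Krt19 at 44.0, and Krt6a at 109 CPM, below Krt8 at 135 and Krt17 at 119. At E13.5 Krt18 (398 CPM) stood above all others. Krt8, Krt14, Krt15 and Krt17, between 66.0 and 35.2 CPM, had overlapping intervals. At E14.5 Krt15 (314 CPM) and Krt18 (285 CPM) led with overlapping intervals.

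The clusters differed in which keratins they carried and in how these moved. In cluster 17 the stratified sum was 456 (63 UMIs), 2826 and 4128 CPM, a fold of 9.04 (7.04 to 11.8), while the simple sum stayed at 304, 272 and 297 CPM. Krt5 in cluster 17 was at 86.9, 634 and 1050 CPM, Krt15 at 123, 821 and 1099 CPM and Krt13 at 0, 239 and 714 CPM. Krt17 in cluster 17 was at 94.2, 388 and 256 CPM, highest at E14.5. There, 8 of 10 keratins were called higher from E13.5 to E15.5, where 24.6% of all genes were. The cells of cluster 17 also differed between stages. Sub-clusters 0 and 8 held 4 cells each of its 49 at E13.5, and 62 and 52 of its 186 at E15.5. Sub-clusters 1 and 9 held 15 and 17 of its cells at E13.5, and 13 and 14 at E15.5. The difference was thus present in cluster 17 as well as in the whole class, but in cluster 17 it was not measured at a fixed cell mix. Krt18 in cluster 17 was at 232 (32 UMIs), 90.5 (14 UMIs) and 149 CPM (85 UMIs). Its log2 ratio from E13.5 to E15.5 there was -0.63, or 0.64-fold (0.42 to 1.00).

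Cluster 1 was not made of the same cells at each stage: 64 of its 98, 56 of its 98 and 35 of its 127 cells belonged to the sub-clusters led by neural or inner-ear genes, and 13, 21 and 62 to a nasal secretory-like one. In cluster 1 the simple sum was 543, 448 and 826 CPM and the stratified sum 18.9 (6 UMIs), 144 (50 UMIs) and 55.5 CPM (30 UMIs). Krt18 there was at 470, 324 and 668 CPM, or at 774, 514 and 768 CPM without the neural and inner-ear sub-clusters, and Krt8 at 66.3, 89.6 and 131 CPM. Of the 10 keratins, 6 reached the level needed for the comparison of E15.5 with E13.5 in cluster 1, and 4 of them were called higher, where 16.6% of all genes were. These calls rest on few UMIs: Krt5 had 0 at E13.5 and 8 at E15.5, Krt4 0 and 6, Krt15 1 and 7, and Krt19 2 and 14. Against the limit of a count of 0, the bounds are 1.56-fold for Krt5 and 1.17-fold for Krt4, short of the call, and the fold intervals of Krt15 (0.53 to 185) and Krt19 (0.94 to 37.2) include 1, so none of the 4 is firm. In cells with an Epcam UMI, most of which lay outside the epithelial-like class at E13.5 and inside it at E15.5, 10 of 10 were called higher between these stages, where 15% of all genes were. In the ciliated cluster 7 the levels at E14.5 and E15.5 were 564 and 626 CPM for Krt18, 365 and 500 CPM for Krt8, 216 and 202 CPM for Krt19 and 415 and 164 CPM for Krt15. The stratified keratin Krt15 thus stood beside simple keratins in this cluster.

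The 644 epithelial-like cells were divided further into 13 sub-clusters, again without Krt genes. The resolution and the naming rules of the sub-clusters were set after the data were seen, and the levels that follow are descriptions over all 3 stages. Sub-cluster 0 (83 cells, 62 of them at E15.5) was stratified-like, with the basal regulator Trp63 at 501 CPM. It carried Krt15 at 1289 CPM, Krt5 at 1120, Krt14 at 590, Krt17 at 327 and no Krt4 UMI, with a simple sum of 124 CPM. Sub-cluster 1 (66 cells, 35 of them at E13.5) was also stratified-like and was led by replication genes such as Rrm2 and Cdc6. Its levels were lower, with Krt15 at 428, Krt5 at 369 and Krt14 at 285 CPM, and it had no UMI of Krt13, Krt6a or Krt4. Its stratified sum was 215 CPM at E13.5 and 2628 CPM (2244 to 3058) in its 20 cells at E15.5, against 4277 CPM (3952 to 4620) in the 62 cells of sub-cluster 0 at that stage. The low level over all stages thus goes along with its many E13.5 cells, and within E15.5 sub-cluster 1 was still the lower of the pair.

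Sub-cluster 8 (70 cells, 52 of them at E15.5) was suprabasal-like. It had the highest summed level of the 13, with the 10 keratins together at 8083 CPM, and the highest Krt13 (2235 CPM), Krt6a (836 CPM), Krt4 (743 CPM) and Krt5. Krt1, the keratin of cornifying suprabasal cells, was at 1242 CPM there, with 96 of its 199 UMIs in 1 cell. Keratins of the basal layer were present there at levels like those of sub-cluster 0, with Krt15 at 1248 against 1289 CPM, Krt14 at 599 against 590 CPM and Krt5 at 1723 against 1120 CPM. The 2 cells that held most of the Krt4 count belonged to this sub-cluster. Without them, a choice made after seeing the data, its Krt4 level was 57.2 CPM (24.7 to 113), below those of the sub-clusters 9 and 12 described next, Krt15 was at 1030 CPM, and Krt13 (1538 CPM), Krt6a (594 CPM) and Krt5 (1731 CPM) were still above every other sub-cluster.

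Sub-clusters 4 and 9 were both nasal secretory-like but differed in their keratins. Sub-cluster 4 (97 cells), led by the olfactory and airway genes Aox2 and Cyp2g1, had Krt18 at 783 CPM and Krt8 at 135 CPM. It had 5 UMIs of stratified keratins against 431 of simple ones. Sub-cluster 9 (69 cells), led by Reg3g and the uroplakin genes Upk1b and Upk3a, had Krt15 at 713 CPM, Krt18 at 436, Krt5 at 231, Krt14 at 185, Krt8 and Krt19 each at 172 and Krt4 at 105 CPM. In sub-cluster 9, 64.0% of the UMIs of the 10 genes were of stratified keratins. The ciliated-like sub-cluster 12 (22 cells) had Krt18 at 735, Krt8 at 593, Krt19 and Krt15 each at 276 and Krt4 at 75 CPM. The periderm-like sub-cluster 7 (20 cells), named from 5 of 8 periderm markers although none is among its 10 leading genes and sub-cluster 9 also had 5, had Krt18 at 300, Krt15 at 277 and Krt8 at 139 CPM and no UMI of Krt6a, Krt17, Krt13 or Krt4.

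The other sub-clusters stayed unnamed. Sub-cluster 3 (71 cells), led by the neuronal genes Neurod1 and Insm1, had Krt18 at 129 CPM and a stratified sum of 189 CPM. Sub-cluster 10 (28 cells), led by Hpse2 and with the neural genes Fezf2 and Reln, had Krt18 at 429 CPM and 5 stratified UMIs. Both carried Epcam, at 1053 and 772 CPM. Sub-cluster 11 (31 cells, 29 of them at E15.5), led by Wfdc18, had Krt18 at 693, Krt14 at 257 and Krt8 at 223 CPM, with Krt7, a further type II keratin of glandular epithelium, at 212 CPM. Sub-cluster 2 (21 cells, 20 of them at E13.5) had Krt18 at 528 CPM, and sub-cluster 5 (37 cells), led by the inner-ear genes Oc90 and Otog, had Krt18 at 205 CPM. Neither sub-cluster 2 nor sub-cluster 5 had a UMI of a stratified keratin. Sub-cluster 6 (29 cells, median 4732 UMIs) was led by collagen and other mesenchymal genes (Col1a1, Col3a1, Zeb2) and had a stratified sum of 1489 CPM. Doublets were left out only by score, and whether sub-cluster 6 holds pairs of cells was not tested.

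**Figure D2:**
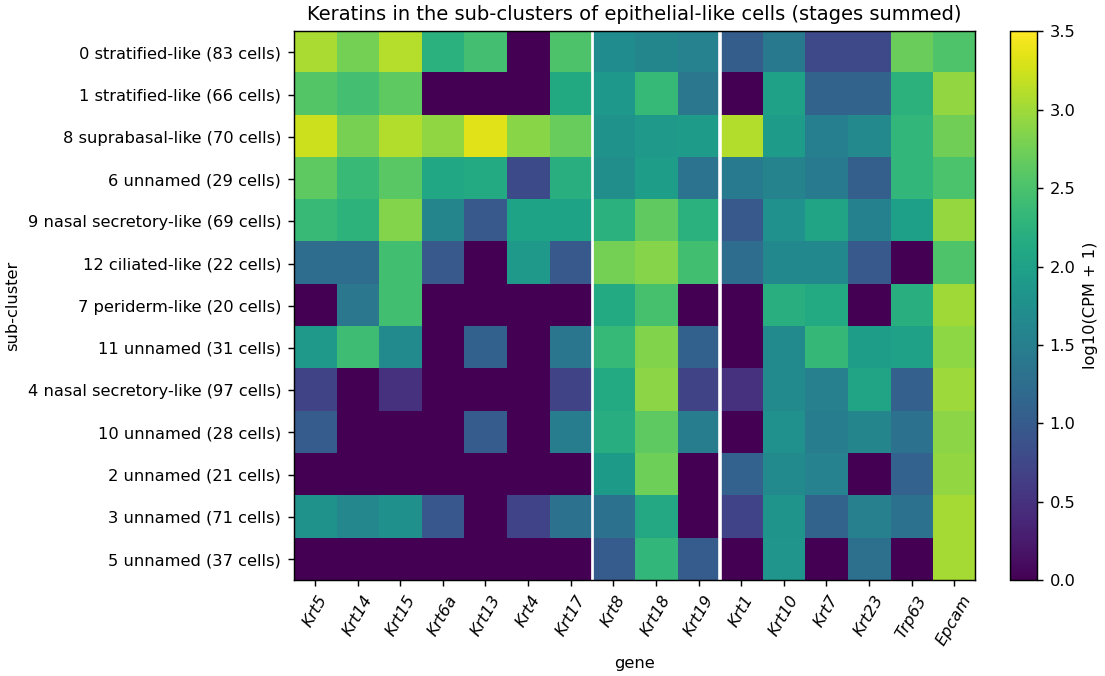
CPM of the 10 keratins (columns) in the 13 epithelial sub-clusters (rows) over all stages, on a log colour scale. The suprabasal-like sub-cluster 8 has Krt13 at 2235 CPM, while sub-cluster 4 has Krt18 at 783 CPM and almost none of the stratified keratins.

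Joint detection depends on depth, so each cell of the epithelial-like class was thinned to 1500 UMIs, which kept 110, 115 and 222 cells and left out 37, 53 and 107 shallower ones. After thinning, 51.8%, 65.2% and 82.0% of the cells had a UMI of at least 1 of the 10 keratins (62.6%, 65.5% and 87.2% before). The mean number of the 10 keratins per cell was 0.627, 1.21 and 1.91. Cells with 4 or more of them numbered 0, 8 and 31. Keratin-negative cells of the epithelial-like class were 48.2%, 34.8% and 18%, and without the neural and inner-ear sub-clusters 35% of 60, 14.8% of 81 and 13.1% of 198 cells.

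Cells with stratified keratins and no simple keratin were 11.8%, 31.3% and 38.3% of the epithelial-like class after thinning (12.2%, 23.2% and 37.7% before). Cells with simple keratins and no stratified keratin were 33.6%, 22.6% and 31.1% (41.5%, 22% and 29.5% before). Cells with both kinds were 6.36%, 11.3% and 12.6% (8.84%, 20.2% and 20.1% before). The kinds were therefore found apart in more cells than together at each stage, at a depth at which a low keratin is often missed.

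**Figure D3:**
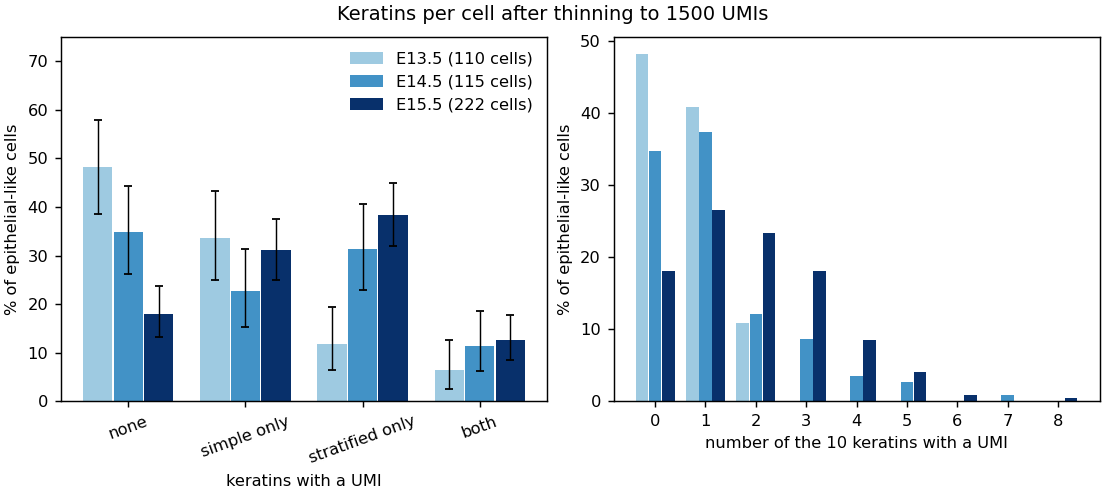
Share of epithelial-like cells (y axis, percent) by the number of the 10 keratins detected per cell (x axis) at each stage, after thinning to 1500 UMIs. Cells with 0 keratins are 48.2% at E13.5 and 18% at E15.5, and 31 cells have 4 or more at E15.5.

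At E15.5 the pairs that form filaments were often found in the same cell of the epithelial-like class. Of 61 thinned cells with Krt14, 42 had Krt5 (68.9%, 55.7 to 80.1), against 19.9% of cells without Krt14. Before thinning the share was 80.4%. Of 74 cells with Krt5, 59 had Krt15 (79.7%, 68.8 to 88.2), against 16.2% of cells without Krt5, and 42 had Krt14 (56.8%). Cells with Krt5, of whatever layer, thus had Krt15 more often than Krt14 in these counts. Of 38 cells with Krt8, 26 had Krt18 (68.4%, 51.3 to 82.5), against 27.2% of cells without Krt8. In the other direction, 26 of 76 cells with Krt18 had Krt8 (34.2%), against 8.22% of cells without Krt18, so Krt18 was often seen without its partner at this depth.

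The suprabasal pair Krt13 and Krt4 was not found together in the same way. At E15.5 in the epithelial-like class, 1 of 7 thinned cells with Krt4 had Krt13, and 3 of 16 had it before thinning (18.8%). All 7 Krt4 cells had Krt15, and 5 of 7 had Krt19 (71.4%), against 6.51% of cells without Krt4. Of 22 cells with Krt13, 18 had Krt5 (81.8%) and 1 had Krt4. Of 15 cells with Krt6a, 12 had Krt5 (80.0%) and 9 had Krt17 (60%), against 9.66% with Krt17 in cells without Krt6a. Krt4 was thus mostly detected in the company of Krt15 and Krt19, the pattern of sub-clusters 9 and 12, while most Krt4 molecules were in 1 suprabasal-like cell with Krt13. These shares rest on 7 to 22 cells.

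Basal and simple keratins overlapped less. Of 110 thinned cells of the epithelial-like class at E15.5 with Krt5, Krt14 or Krt15, 25 had Krt8, Krt18 or Krt19 (22.7%, 15.3 to 31.7), against 64.3% of the 112 cells without a basal keratin. Before thinning the shares were 32.4% and 70.0%. Krt5 was in 7 of 76 cells with Krt18 (9.21%) and in 45.9% of cells without it, and Krt6a was in 0 of those 76. Krt19 stood between the kinds, with Krt15 in 11 of 19 Krt19 cells (57.9%) and Krt18 in 9 of 19 (47.4%). Cells with a suprabasal keratin (Krt13 or Krt4) nearly all had a basal one, 27 of 28 (96.4%) after thinning and 91.4% before. Of all 222 thinned cells, 110 had a basal keratin. Trp63 was in 38 of 110 cells with a basal keratin (34.5%) and in 7.14% of cells without.

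The overlap of basal with simple keratins was not the same in all sub-clusters. Over all stages, 17 of 32 thinned basal-keratin cells of sub-cluster 9 had a simple keratin (53.1%), against 7 of 53 in sub-cluster 0 (13.2%) and 7 of 37 in sub-cluster 8 (18.9%). At earlier stages fewer cells carried these genes. In the epithelial-like class at E14.5, 11 of 21 Krt14 cells had Krt5 (52.4%, against 13.8% of cells without Krt14), and 10 of 44 basal-keratin cells had a simple keratin (22.7%, against 40.8%). Only 2 of 12 Krt8 cells had Krt18 at E14.5 (16.7%, against 21.4%). At E13.5, 0 of 8 Krt14 cells had Krt5 after thinning, while in the epithelial-like class, unthinned, 3 of 17 did (17.6%, against 3.08% of cells without Krt14).

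**Figure D4:**
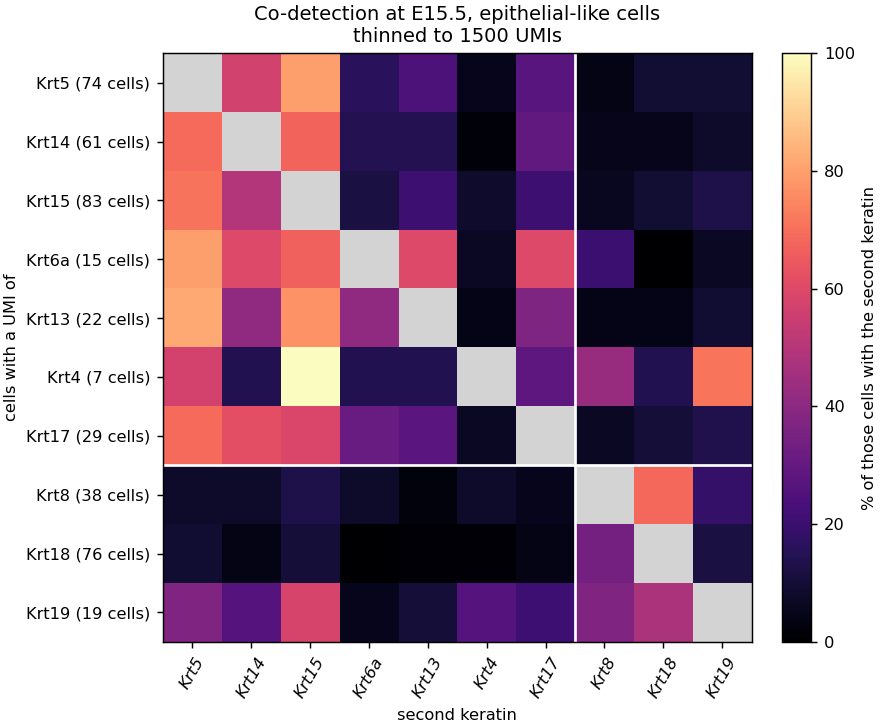
Percent of cells with the row keratin that also have the column keratin, in the epithelial-like class at E15.5 after thinning to 1500 UMIs per cell. Krt5 cells have Krt15 in 79.7% and Krt14 in 56.8%, while Krt18 cells have Krt5 in 9.21%.

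Genes that work with these keratins were read from lists of the pathway. The counts that follow are for the whole class, in which cluster 17 went from 49 of 147 to 186 of 329 cells. Keratin filaments are anchored between cells at desmosomes and to the basement membrane at hemidesmosomes. In the epithelial-like class from E13.5 to E15.5, 8 of 10 desmosome genes were called higher and 0 lower, where 18% and 6.29% of all genes were, and their median log2 ratio was 2.07 against 0.07 over all genes. The plakophilin Pkp1 (log2 ratio 4.70, from 1 to 100 UMIs), the desmoglein Dsg3 (4.28, from 2 to 126) and Pkp3 (3.41, from 1 to 40) had the largest ratios. Within cluster 1, 3 of 8 desmosome genes compared were called higher (median 0.56), where 16.6% of all genes were. Within cluster 17, whose own mix of sub-clusters also differed between stages, 6 of 10 were called higher and 1 lower (median 2.04). There, 24.6% of all genes were called higher. The smallest ratios in the whole class were those of Jup (1.03), Dsg2 (0.70) and Pkp2 (-0.41), which are also found in simple epithelium. Of 8 hemidesmosome genes 6 were called higher and 0 lower (18% and 6.29% of all genes), with a median of 2.08. They were 2 of 5 in cluster 1 (median 0.73) and 7 of 8 in cluster 17 (1.76). Their largest ratios were those of Col17a1 (3.95), Lama3 (3.18, from 1 to 34 UMIs) and Lamb3 (2.71), while Dst (0.88) and Itga6 (0.33) were not called.

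Suprabasal genes, which are known from the same layers as Krt13, formed a list of their own. Of 12 listed, 8 reached the level for comparison, 6 were called higher and 0 lower (18% and 6.29% of all genes), with a median log2 ratio of 4.42. Krtdap had 0, 104 and 637 UMIs at the 3 stages. At the last stage Ly6d (0, 6 and 111 UMIs) was at least 13.9-fold higher than at the first, and Dmkn (0, 5 and 44 UMIs) at least 5.49-fold higher. Sbsn had a log2 ratio of 2.19, Anxa8 of 0.99 and Sfn of 0.53. Of 12 regulators of stratified epithelium 11 could be compared, 5 were called higher and 1 lower (18% and 6.29% of all genes), with a median of 0.89. The AP-2 factor Tfap2b (0, 10 and 21 UMIs) was at least 2.62-fold higher, Trp63 had a log2 ratio of 2.25 (14, 59 and 182 UMIs) and Zfp750 one of 1.55. The smallest were those of Tfap2c (0.13), the Notch ligand Jag2 (-0.08) and the periderm regulator Grhl3 (-1.06, 13, 2 and 16 UMIs), which was called lower.

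Among the 43 other Krt genes, 4 reached the level for comparison in the epithelial-like class, with 2 called higher, 0 lower (18% and 6.29% of all genes) and a median log2 ratio of 1.11. Krt1 had a log2 ratio of 4.95 (2, 9 and 202 UMIs), but 96 of its 202 UMIs at E15.5 were in 1 cell and 84.7% in 5 cells. Krt7 had one of 1.48 (9, 15 and 69 UMIs), Krt23 of 0.75 and Krt10 of -0.39 (30, 35 and 61 UMIs). Krt1 and Krt10 pair in cornifying epithelium, but Krt10 was not called. Of 10 other intermediate filament genes 6 were compared, with 1 called higher, 2 lower (18% and 6.29% of all genes) and a median of -0.83, so the share called higher was near that of all genes. The nuclear lamin Lmna was higher (2.12), Vim had a log2 ratio of 0.00, Ina and Nes were each at -0.83, and the neurofilament genes Nefl (-2.96, from 6 to 1 UMI) and Nefm (-3.35, from 8 to 1 UMI) were called lower.

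Across 24 clusters of at least 20 cells, each keratin was set beside the genes whose levels ran most like its own. The measure was Pearson's r of log2 CPM with 10 CPM added, over 12724 genes without Krt genes, as a description: the clusters share libraries, and most lie outside the epithelium at levels near 0. Krt5 was most like Mir205hg (r 0.946), Dsg3 (0.919) and Sh3rf2 (0.908), Krt14 most like Barx2 (0.908), Lamb3 (0.894) and Sh3rf2 (0.889), and Krt15 most like Sfn (0.953), Dsp (0.945) and Tfcp2l1 (0.939). Krt6a was most like Dsg3 (0.950), Lamb3 (0.949) and Trim29 (0.948), Krt13 most like Krtdap (0.979), Dsg1a (0.974) and Col17a1 (0.973), and Krt17 most like Lamb3 (0.912), Mir205hg (0.905) and Krtdap (0.90). Krt8 was most like Smim22 (0.955), Grb7 (0.933) and Cyp2f2 (0.93), Krt18 most like Wfdc2 (0.954), Rab25 (0.947) and Cldn7 (0.935), and Krt19 most like Cyp2f2 (0.980), Dapl1 (0.967) and Sptlc3 (0.961). Krt4 was most like Sfn (0.959), Tmprss13 (0.958) and Dmrt2 (0.958).

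Between the keratins themselves r was 0.94 for Krt6a with Krt13, 0.93 for Krt8 with Krt18, 0.91 for Krt8 with Krt19 and for Krt5 with Krt6a, and 0.28 for Krt13 with Krt18. Krt4 had an r of 0.93 with Krt15, 0.89 with Krt19 and 0.73 with Krt13. Krt14 and Krt17 had an r of 0.93, as did Krt6a and Krt17. Krt14 and Krt17 share sequence. Of the 470 stretches of 31 bases in the last 500 bases of each transcript, 81 (17.2%) occur in both. Krt6a shared no such stretch with another gene. Whether shared sequence entered the counts or the r of Krt14 and Krt17 was not tested. Krt18 shared 49 such stretches (10.4%), mostly with the pseudogene Gm5200, and Krt19 shared 5 (1.06%). Krt5, Krt6a and Krt8 have annotated genes on the opposite strand (Gm44323, Gm49428 with Gm44342, and Gm36026), and whether counting used strand was not given in the sources used here.

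Summed over all cells outside the epithelial-like class, the 10 keratins were lower than inside it at both later stages. At E15.5, Krt5 was at 499 CPM in the epithelial-like class and 17.8 in all other cells together (28.1-fold), Krt13 at 337 and 5.62 (59.9-fold), Krt4 at 98.9 and 1.09 (90.4-fold) and Krt17 at 125 and 7.18 (17.4-fold). Krt8 was at 147 and 5.93 CPM (24.7-fold), Krt18 at 421 and 13.9 (30.3-fold) and Krt19 at 52.7 and 0.78 (67.5-fold). Krt10, which is no member of the 10, was at 50.3 CPM inside and 30.4 outside (1.65-fold). All 10 were higher inside by at least 3 on the log2 scale at both later stages, and so were the 6 that reached the level for comparison at E13.5, which they reached through the class itself. Of the other 4 at E13.5, Krt19 had 3 UMIs on each side, Krt4 had 0 inside and 2 outside, and Krt6a and Krt13 had none. Of all genes 1.42%, 2.13% and 2.77% were.

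Because the other cells are many, they still held a sizeable part of the keratin UMIs. Of the stratified keratin UMIs, 64.5%, 78.8% and 85.9% lay in the epithelial-like class. For the simple keratins the shares were 49.9%, 73.3% and 85.1%. Single genes at E15.5 had 91.9% (Krt13), 94.5% (Krt4) and 92.8% (Krt19) of their UMIs inside. At E13.5 an unnamed cluster of 251 cells (cluster 11, median 6421.5 UMIs), led by embryonic globin and neuronal genes, held 113 simple and 27 stratified keratin UMIs. Pituitary-like cells had Krt18 at 255, 13.8 and 150 CPM, and a keratin UMI in 10 of 26 (38.5%), 1 of 21 (4.76%) and 4 of 24 (16.7%) thinned cells, so at E13.5 and E15.5 Krt18 was near its level in epithelial cluster 17.

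In the mesenchymal lineage, 6 of 390 (1.54%), 16 of 690 (2.32%) and 50 of 1071 (4.67%) thinned cells had a keratin UMI, and before thinning the shares were 1.86%, 3.90% and 6.96%. In myeloid cells, which should lack keratins, they were 0 of 21, 0 of 43 and 2 of 64 (3.12%, upper bound 10.8%), and in endothelial cells 0 of 5, 0 of 31 and 2 of 40 (5.00%). Median totals before thinning were 1869, 1760 and 1965.5 UMIs in the mesenchymal lineage and 2060, 1769 and 1651 in myeloid cells. At E15.5 the mesenchymal share lay within the wide interval of the myeloid one, so a mesenchymal level above background was not detectable with these 64 cells. At both later stages, shares were higher in neuronal cells (1.28%, 14% and 16.8% over the 3 stages) and in the deeper muscle cells (0 of 9, 11.8% and 15.2%, with median totals of 6412 and 4960 UMIs at the last stages). The neuronal cells were not of the same clusters at each stage. Before thinning, clusters 2, 3, 9 and 10 held 593, 621, 264 and 245 of them at E13.5, and cluster 18 held 42. At the later stages cluster 18 held most of them, with 118 and 150 cells. Cluster 18 also scored on 7 of the 15 epithelial markers.

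**Figure D5:**
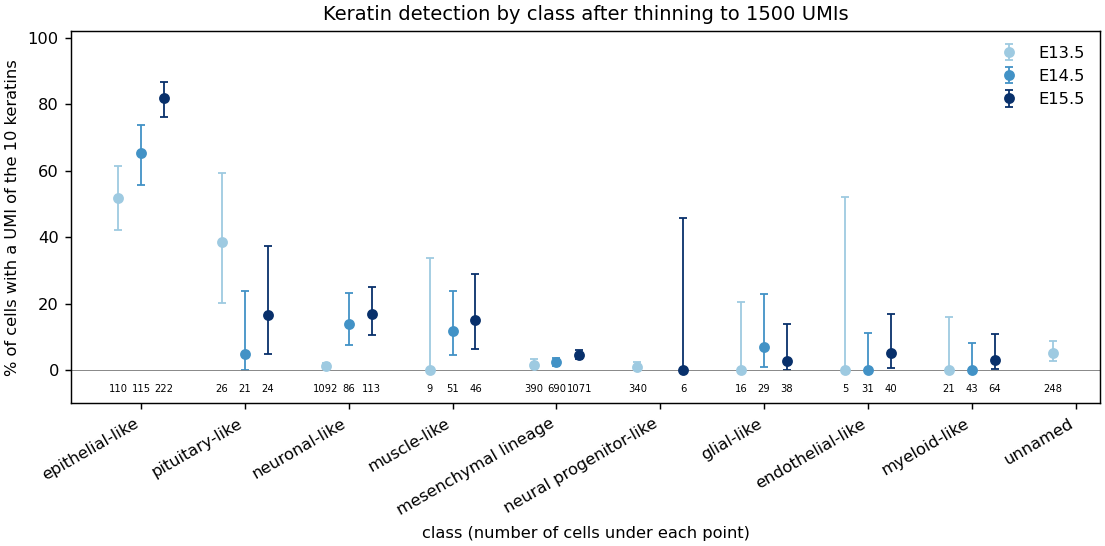
Share of cells with a UMI of any of the 10 keratins (y axis, percent) by cell class and stage, after thinning to 1500 UMIs, with exact binomial 95% intervals of counting error as bars. The epithelial-like class is at 51.8%, 65.2% and 82.0% and the mesenchymal lineage at 1.54%, 2.32% and 4.67%.

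The keratin UMIs outside the epithelial-like class had nearly the same make-up as those inside at E15.5, with 75% against 76.2% from stratified keratins. At E13.5 and E14.5 the shares were 15% against 24.4% and 59.2% against 66.4%. Single clusters at E15.5 differed from this. Mesenchymal-like cluster 16, led by cell-cycle genes such as Top2a and Prc1, had 34 of 34 UMIs from stratified keratins, while mesenchymal-like cluster 6, led by Cntn6 and Tfap2b, had 9 of 37 (24.3%). In cluster 18, a neuronal cluster with the olfactory gene Gng13, 111 of 139 were stratified, with 49 of them in 1 cell.

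Most outside cells with a stratified keratin carried very little of it. There were 23, 46 and 127 such cells, of which 15, 28 and 94 had 1 UMI. Their median totals of 5794, 3277 and 3768 UMIs lay above those of the outside cells without one, which were 1934, 1816 and 1909.5. Epcam was detected in 65.2%, 43.5% and 18.9% of them, against 5.45%, 7.10% and 5.26% of the others. The part of depth, free RNA and joined cells in these counts was not tested.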

How the data were processed

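The deposited tables are unnormalized UMI counts by gene and barcode, which the authors made with Cell Ranger 6.1.2 on mm10, per the submitters' processing notes. The chemistry end and the strand setting of counting are not given in the sources used here. Barcodes with under 500 genes (544, 304 and 473) or over 20% mitochondrial UMIs (0) were left out. The automatic threshold of scrublet (scanpy 1.11.5) called 0, 4 and 1 cells which is too few, and barcodes were removed by descending score at 0.8% per 1000 barcodes (109, 25 and 56). Counts were scaled to 10000 per cell and logged, and 2000 variable genes without Krt genes, 30 components and 15 neighbours were used for Leiden clusters (resolution 1, igraph 0.11.9). A cluster took its name from the one of 14 marker lists best covered, if at least 3 markers were detected above other clusters. Where more of its 10 leading genes were on another list, that list gave the name if it had at least 3 such markers. Clusters 5 (osteogenic) and 13 (muscle) were named so, although the mesenchymal list was best covered. By rules set after seeing the clusters, clusters and sub-clusters stayed unnamed at a tie, or where globin genes led a cluster with neuronal markers. Sub-clusters also stayed unnamed where genes of another class led.

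UMIs were summed per class and stage. CPM carry exact Poisson intervals, shares exact Clopper-Pearson intervals and folds exact conditional binomial intervals, which cover counting error only. A count of 0 allows 3 counts. With 1 library per stage no test between stages was run. The calculation was checked on simulated data.

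The 10 keratins and the gene lists were chosen with earlier results of these data known. Named besides the 10 were, of each list, the 3 largest and 3 smallest ratios (E15.5 over E13.5, log2) among genes of at least 10 CPM, the 3 genes most like each keratin, and Epcam. Of the genes this rule names, 1 is not reported here. Genes that lead clusters, and single cells, were named after their values were seen.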

Additional observations from a re-analysis of the deposited data

Results flagged for a closer look

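Krt18 had net ratios of opposite sign in the 2 large epithelial clusters. Its log2 ratio over these stages (E15.5 over E13.5) was 0.506 in cluster 1, over all stages led by airway secretory genes (149, 112 and 361 UMIs at the 3 stages), and -0.633 in cluster 17, led by genes of stratified epithelium (32, 14 and 85 UMIs). The cells of cluster 1 differed between stages, with 64 of 98 at E13.5 and 35 of 127 at E15.5 in sub-clusters led by neural or inner-ear genes. Without these Krt18 in cluster 1 was at 774, 514 and 768 CPM, so the higher net level at E15.5 was not present in the other cells. In cluster 17, 52 of the 85 UMIs at E15.5 were in the unnamed sub-cluster 11. Step by step the signs were alike: from E13.5 to E14.5 the log2 ratios were -0.54 in cluster 1 and -1.35 in cluster 17, and from E14.5 to E15.5 they were 1.04 and 0.71. Neither net ratio reached 1 in size, and with 1 library per stage the difference was not tested. The interval of the fold was 1.17 to 1.73 in cluster 1 and 0.42 to 1.00 in cluster 17.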

How the results depend on the processing

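The stratified sum (3.70, log2 of E15.5 over E13.5) was 4.10 as the mean of single-cell CPM, 4.49 in cells with an Epcam UMI, 4.62 in cells with at least 2 epithelial markers, 4.56 in cells with an Epcam or keratin UMI (a set that the compared UMIs themselves select, so that it supports nothing), 2.45 with the mix of sub-clusters 1, 3, 4 and 9 held fixed (which also leaves out all other sub-clusters) and 2.86 without the neural and inner-ear sub-clusters. The simple sum (0.40) was 1.34, 1.06 and 0.92 in these 3 cell sets and reversed to -0.032 with the mix fixed. The cause was not tested. Without thinning, the share of Krt14 cells with Krt5 at E15.5 was 80.4%, that of basal-keratin cells with a simple keratin 32.4%, and that of mesenchymal cells with a keratin 6.96%; more UMIs per cell make a UMI of each gene more often seen. Without the cell richest in each gene, a choice made after seeing the data, the sums were 3.86 and 0.48, and the log2 ratios were 4.05 for Krt6a, 5.24 for Krt13 and 1.77 for Krt4 (all against the limit of a count of 0) and 3.06 for Krt17. Of 104 single-keratin values under other settings, 79 stayed within their counting interval, and 25 moved, among them Krt18, which was not called and went from 0.08 to -0.36 with the mix fixed. The fixed mix gave no value for Krt6a, Krt13 and Krt4, which had no UMI at E13.5. At resolution 0.5 the epithelial cells merged with pituitary-like cells. No paired analysis was possible because each stage has 1 library. At E13.5, levels under 6.60 CPM are below what the depth of the class can show.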
